A study of Mus musculus with 16 samples.

Results

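The response of the mouse fallopian tube to 2 h of progesterone was measured in 8 of the 16 samples of a microarray study, which form 4 of its 8 pairs of a progesterone sample and a vehicle sample. The 4 progesterone samples were exposed to 100 nmol/L progesterone in medium with 0.01% ethanol, and the 4 vehicle samples to 0.01% ethanol alone. All tubes came from immature female C57BL/6N mice aged 3.5 to 5 weeks that had received no hormone, were cut into pieces in culture, and were pooled so that each sample held 6 tubes. The pairs carry the codes 6d, 19n, 30o and 15o, and values of 4 samples are given in that order throughout. The other 8 samples were exposed for 20 min in the same way and serve below as a comparison. The arrays were Illumina MouseRef-8 v2 BeadChips. Unless stated otherwise, values are log2 signals after quantile normalization, or differences of log2 signals, progesterone minus vehicle. Immature tubes in short culture, and pooling, limit what these samples stand for, and p-values measure only the spread between pooled samples.

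Progesterone acts mainly through the nuclear progesterone receptor, encoded by Pgr, a transcription factor held ready by heat shock chaperones and their partners, and it can also act through membrane proteins of the Pgrmc and Paqr families. In the fallopian tube, ciliated cells, secretory cells and layers of smooth muscle move the egg, and progesterone is known to affect this transport. Endothelins are peptides that contract smooth muscle through the receptors encoded by Ednra and Ednrb.

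The samples differed in the signals of cell type markers. The median signal of an array, not in log2 and before normalization, lay between 116.6 and 129.3. Of the 25697 probes, 13222 to 13715 had a detection p-value under 0.05. Ovgp1, which encodes the oviduct-specific glycoprotein, the cilia regulator Foxj1 and the smooth muscle myosin Myh11 were detected on 8 of 8 arrays, while the ovary genes Bmp15, Foxl2 and Fshr were detected on 0 of 8. A smooth muscle score, the mean over 11 markers of the log2 signal less each marker's mean over 16 arrays, was 0.53, -0.0011, -0.18 and -1.48 in the vehicle samples and 0.47, -0.96, -0.51 and -0.17 in the progesterone samples. Within the pairs, the score therefore differed by -0.06, -0.96, -0.33 and 1.31. The check of the pairing described with the processing does not clearly bear out 19n and 15o. The vehicle sample of pair 15o had the lowest score of the 8, and most muscle markers were lower with progesterone in 19n and 30o and higher in 15o. In whole tubes, fewer muscle cells and less RNA per cell cannot be told apart.

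Only 1 probe passed the test after 2 h. Of 16848 probes for 12465 gene symbols, limma with the pair as a block called 1 higher (0.00594%) and 0 lower (0%), the threshold being 0.20 for p adjusted by Benjamini and Hochberg's method. The called probe belongs to Arfl4, the array's name for Arl4d, which encodes a small GTP-binding protein of the ARF-like family. Before adjustment, 437 probes had a p under 0.05, of which 234 (1.39%) were higher and 203 (1.2%) lower. The signal was higher in all 4 pairs for 847 probes (5.03%) and lower in all 4 for 903 (5.36%), and the groups did not overlap for 143 higher (0.849%) and 137 lower probes (0.813%). The differences were small, with 5% of probes below -0.14 and 5% above 0.14. The largest difference of one sign in all 4 pairs was 0.91 among higher probes and -0.35 among lower probes. Paired SAM, named in the study's methods, called 17 probes (0.101%) at its threshold of 20% for the q-value, all higher.

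The study lists 11 genes for this time point, chosen on these same samples, so their direction on these arrays is a description and not independent evidence. Separate evidence comes from the paper's quantitative PCR on other mice, which found Edn1, Amigo2 and Rasd1 higher with progesterone at this time point. That PCR gave no product for Arfl4, did not cover the other listed genes, and is not part of the data used here. All 11 were higher on average, 10 of them in all 4 pairs, with a median difference of 0.49 against -0.0022 over all genes tested. Paired SAM, the kind of test by which the study chose them, called all 11, Irak2 by its dimmer probe only. With all 16 arrays in one fit, limma called 6 probes, those of Arfl4, Tigd2, Slc25a33, Edn1, Serpina3n and Rasd1, all of the list. Per gene, 4.81% of all genes tested were higher and 5.45% lower in all 4 pairs, the background for the counts of each gene group below. The promoters below show the sequence before the start of some of these genes and of Cxcl2, a neighbour of Cxcl1 that the study does not list. The genes were chosen for being higher, and whether they share a motif was not tested. RefSeq promoters of the mouse build GRCm38.p6 were found for 9 of the 11 genes, not for Tigd2 and Rasd1. The 250 bases before the start were searched on both strands for GGANTTTCC (NF-kB type), TGACGTCA (cAMP response element), TGANTCA (AP-1 type), AGAACA (a single steroid receptor hexamer) and ACANNNTGT (the core of the steroid receptor palindrome, which can overlap the hexamer). Among 27025 mouse promoters of this length, these letters occur in 1.05%, 1.62%, 6.87%, 16.2% and 5.91%. Below are Arl4d (chr11:101665291-101665540, plus strand), Cxcl1 (chr5:90890995-90891244, plus strand), its neighbour Cxcl2 (chr5:90903649-90903898, plus strand), Serpina3n (chr12:104406458-104406707, plus strand) and Glrx (chr13:75839635-75839884, plus strand), with matches in capitals.
Arl4d: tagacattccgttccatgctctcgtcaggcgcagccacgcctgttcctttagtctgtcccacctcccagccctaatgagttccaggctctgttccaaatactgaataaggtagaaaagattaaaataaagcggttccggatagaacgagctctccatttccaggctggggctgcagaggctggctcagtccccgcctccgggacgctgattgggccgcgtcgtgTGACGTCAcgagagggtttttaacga
Cxcl1: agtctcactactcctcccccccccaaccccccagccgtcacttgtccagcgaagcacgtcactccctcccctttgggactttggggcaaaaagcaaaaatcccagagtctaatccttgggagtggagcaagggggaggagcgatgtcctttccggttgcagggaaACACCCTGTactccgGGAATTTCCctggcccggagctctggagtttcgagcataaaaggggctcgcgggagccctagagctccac
Cxcl2: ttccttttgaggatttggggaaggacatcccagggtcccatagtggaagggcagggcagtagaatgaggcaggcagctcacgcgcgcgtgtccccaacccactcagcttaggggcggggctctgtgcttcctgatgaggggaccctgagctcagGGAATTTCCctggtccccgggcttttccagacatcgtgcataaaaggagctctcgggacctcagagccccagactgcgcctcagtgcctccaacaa
Serpina3n: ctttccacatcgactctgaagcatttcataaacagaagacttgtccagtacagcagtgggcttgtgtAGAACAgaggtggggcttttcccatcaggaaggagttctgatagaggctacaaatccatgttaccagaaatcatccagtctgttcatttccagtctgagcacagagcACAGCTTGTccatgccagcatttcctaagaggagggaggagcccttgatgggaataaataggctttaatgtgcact
Glrx: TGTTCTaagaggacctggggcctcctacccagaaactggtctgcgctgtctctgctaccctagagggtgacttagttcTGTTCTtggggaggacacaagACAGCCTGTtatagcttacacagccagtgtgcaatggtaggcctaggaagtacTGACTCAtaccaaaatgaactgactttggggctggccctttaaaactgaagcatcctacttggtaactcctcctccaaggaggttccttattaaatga
The Arl4d promoter holds the cAMP response element, beginning 26 bases before the start. Those of Cxcl1 and Cxcl2 hold the same NF-kB type match, beginning 70 and 96 bases before it, and that of Cxcl1 also a palindrome core. The Serpina3n promoter holds 1 hexamer and 1 palindrome core, and that of Glrx holds 2 hexamers, 1 palindrome core and an AP-1 type match. None of these motifs was found in the windows of Amigo2, Edn1, Irak2, P4ha2 and Slc25a33, which says only that these letters are not there.

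The small GTP-binding proteins of the list are encoded by Arfl4 and Rasd1. Arfl4 signals were 7.71, 7.47, 7.49 and 7.33 in the vehicle samples and 8.87, 8.19, 8.24 and 8.24 in the progesterone samples. Every progesterone sample lay above every vehicle sample, and 6d was the highest of each group. The difference was 0.88 (SE 0.09, 95% confidence interval 0.68 to 1.09, limma adjusted p = 0.119). It missed the threshold without pair 6d (0.79, adjusted p = 0.811) and without pair 30o (0.93, adjusted p = 0.9998). The call was also lost without the pair as a block (adjusted p = 0.99998), with median scaling (0.654), with quantile normalization over the 8 arrays alone (0.404) and with no normalization (0.309). The gene's other probe, listed under Arl4d, was detected on 0 of 8 arrays and bears no information on the gene. Rasd1, a Ras-related protein known as a gene induced by dexamethasone, had signals of 7.74, 7.28, 7.67 and 7.62 in the vehicle samples and 8.37, 7.67, 7.99 and 8.20 in the progesterone samples. It was higher in all 4 pairs by 0.48 (SE 0.08, limma adjusted p = 0.780), but the groups overlapped, since the progesterone sample of 19n lay below the vehicle sample of 6d.

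Slc25a33 and Glrx act in mitochondria and in redox balance. Slc25a33, a mitochondrial carrier of pyrimidine nucleotides, had signals of 10.04, 9.94, 10.13 and 10.14 in the vehicle samples and 10.95, 10.83, 10.76 and 10.61 in the progesterone samples. The groups were well apart, with the lowest progesterone sample above the highest vehicle sample. The difference was 0.72 (SE 0.09, limma adjusted p = 0.244), outside the threshold. It passed in 6 of 13 alternative settings, while the limma adjusted p was 0.9994 with neqc and 0.9998 without pair 30o. Glrx, glutaredoxin, which reduces protein-glutathione bonds, had signals of 9.89, 9.90, 9.67 and 9.57 in the vehicle samples and 11.42, 9.88, 10.65 and 10.32 in the progesterone samples. It was higher in 3 pairs and level in 19n, the only gene of the list without one sign. Its pair differences of 1.53, -0.03, 0.99 and 0.75 had the widest spread of the 11 genes, and the mean was 0.81 (SE 0.21).

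Cxcl1, Irak2 and Serpina3n belong to inflammatory signalling. Cxcl1, a chemokine that attracts neutrophils, had signals of 10.89, 10.94, 10.95 and 10.32 in the vehicle samples and 11.39, 11.70, 11.28 and 10.67 in the progesterone samples. The vehicle sample of 15o was far below the other vehicle samples, and its progesterone partner was below them too, so the groups overlapped although each pair was higher. The mean difference was 0.49 (SE 0.09). Irak2, a kinase-like protein downstream of interleukin 1 and Toll-like receptors, has a pair of probes. The brighter one had signals of 8.79, 8.70, 8.54 and 8.39 in the vehicle samples and 9.07, 9.29, 8.69 and 8.69 in the progesterone samples, a difference of 0.33 with overlapping groups. The dimmer one differed by 0.41 (SE 0.07), with groups that did not overlap. Serpina3n, an inhibitor of serine proteases, had signals of 10.19, 10.29, 10.27 and 10.05 in the vehicle samples and 10.41, 10.93, 10.84 and 10.60 in the progesterone samples. The groups did not overlap, pair 6d had the smallest difference, and the mean was 0.49 (SE 0.09). The limma adjusted p of these 3 genes was 0.9997.

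Edn1 encodes a secreted peptide, P4ha2 an enzyme subunit of collagen synthesis and Amigo2 a protein of the cell surface, and Tigd2 is derived from a transposon. Edn1, which encodes the precursor of endothelin 1, had signals of 9.92, 9.9999, 9.94 and 10.09 in the vehicle samples and 10.33, 10.41, 10.28 and 10.59 in the progesterone samples. This was the most even difference of the list, 0.41, 0.41, 0.34 and 0.50 in the pairs, with a mean of 0.42 (SE 0.07, limma adjusted p = 0.780) and groups that did not overlap. P4ha2, a subunit of the enzyme that hydroxylates collagen prolines, had signals of 7.88, 7.77, 7.81 and 7.82 in the vehicle samples and 8.30, 8.42, 8.22 and 8.05 in the progesterone samples, a difference of 0.43. Its vehicle samples were nearly equal and all progesterone samples lay above them. Amigo2, a cell adhesion protein, had signals of 10.74, 10.69, 10.55 and 10.58 in the vehicle samples and 11.20, 11.16, 10.88 and 10.82 in the progesterone samples, a difference of 0.37 without overlap. Tigd2, of the tigger family, had signals of 8.88, 8.78, 8.84 and 8.97 in the vehicle samples and 10.23, 9.36, 9.68 and 9.84 in the progesterone samples. The groups did not overlap, 6d again had the largest difference, and the mean of 0.91 (SE 0.12, limma adjusted p = 0.244) was the largest of the list.

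**Figure D1:**
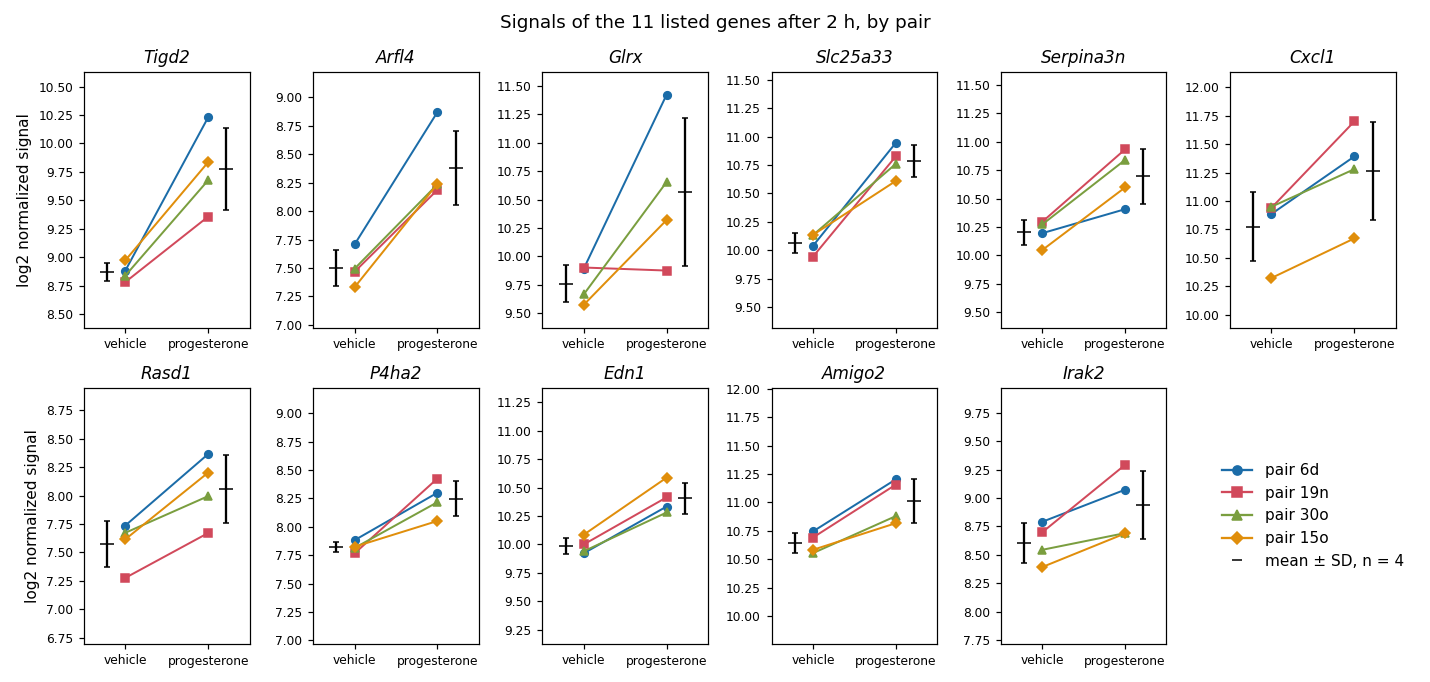
Log2 normalized signals of the 11 listed genes in the vehicle and progesterone samples of 2 h, one line per pair, with the mean and SD of 4 samples in black. Every panel spans the same number of log2 units, and all lines go up except that of Glrx in pair 19n.

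Whether these differences were greater at 2 h than at 20 min was tested as the difference of the effects at 2 h and 20 min, in 1 fit over 16 arrays with 8 pairs as blocks. Since the 11 genes were chosen for their 2 h values on these same arrays, their differences are expected to lean upward and are given as a description. It called 1 of 16848 probes (0.00594%), again Arfl4, whose pair differences at 20 min were -0.28, 0.04, 0.16 and -0.30 (pairs 27n, 26n, 12n and 22ob). The effect at 2 h was greater by 0.98 (SE 0.13, limma adjusted p = 0.147). This call was lost without pair 6d (adjusted p = 0.287), without pair 30o (0.554), without a filter (0.298), with median scaling (0.857) and without the pair as a block (0.9999). For Tigd2, Serpina3n and Rasd1 the effects differed by 0.83, 0.61 and 0.64, each with an adjusted p of 0.383, and for Slc25a33 by 0.69 with an adjusted p of 0.607. The other 6 genes had differences of 0.31 to 0.71 with an adjusted p of 0.618 or more. For Edn1 the pair differences at 20 min were 0.13, -0.11, 0.15 and 0.03, on both sides of 0, and the effects differed by 0.37.

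**Figure D2:**
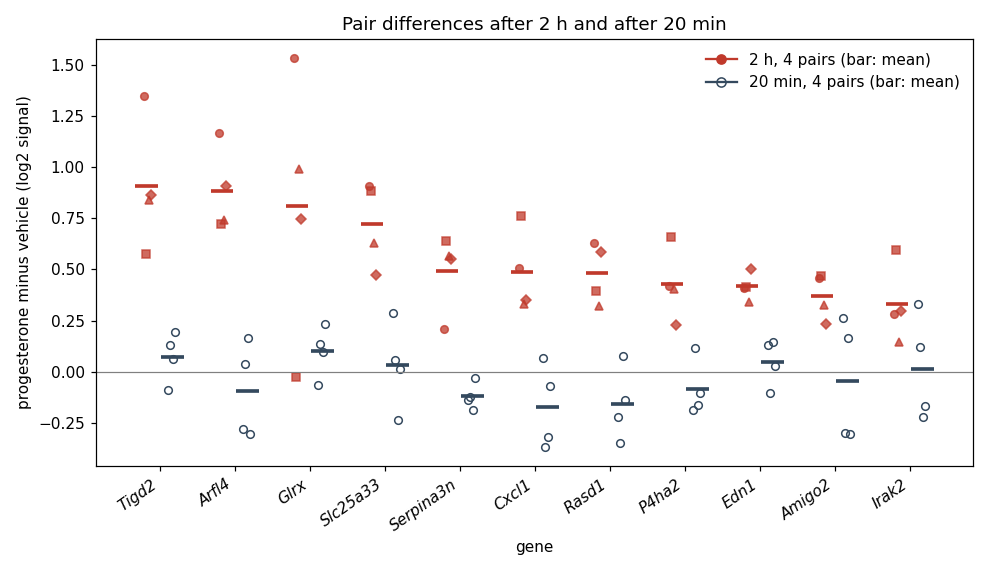
Progesterone minus vehicle in log2 signal for the 11 listed genes, with filled points for the 4 pairs of 2 h, open points for the 4 pairs of 20 min, and bars for the means. The genes were chosen on the 2 h samples, whose means lie between 0.33 and 0.91, the 20 min means between -0.17 and 0.10.

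Beyond the list, the 15 probes with the smallest p among those higher in all 4 pairs differed by 0.26 to 0.46. None passed limma's test (adjusted p 0.9997), and their places follow from the ranking itself. SAM called Tmem50a, Clk1, Becn1, Nfkbiz, Tmcc3 and Hspb8 among them. Clk1, a kinase of splicing factors, had signals of 8.77, 8.75, 8.95 and 8.82 in the vehicle samples and 9.07, 9.02, 9.28 and 9.14 in the progesterone samples. The pairs agreed closely, with a mean of 0.31 (SE 0.06) and no overlap. Nfkbiz, an inducible regulator of NF-kB target genes, had signals of 10.25, 10.28, 9.62 and 9.84 in the vehicle samples and 10.59, 10.47, 10.27 and 10.27 in the progesterone samples, with a mean difference of 0.40 and overlapping groups. Hmox1, the heme-degrading enzyme heme oxygenase 1, had pair differences of 0.32, 0.10, 0.53 and 0.88 with a mean of 0.46, and Hspb8, a small heat shock protein, of 0.25, 0.26, 0.34 and 0.31 with a mean of 0.29. The autophagy gene Becn1 was higher by 0.35, the stress-responsive kinase Plk3 by 0.31, the hyaluronidase Hyal1 by 0.33, and the membrane protein genes Tmem50a and Tmcc3 by 0.36 and 0.30. Map3k8, a kinase that activates MAP kinases downstream of Toll-like receptors, was higher by 0.36 without overlap. Gramd3 (0.34), Cdk5rap1 (0.31), Sectm1a (0.35), 4933434E20Rik (0.26) and the proteasome-bound deubiquitinase Usp14 (0.27) complete the 15.

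The differences in the other direction were smaller. Smad3, a transcription factor of TGF-beta signalling, led them with signals of 9.13, 9.01, 8.58 and 8.81 in the vehicle samples and 8.75, 8.54, 8.35 and 8.48 in the progesterone samples. It was lower in each pair, with a mean of -0.35 (SE 0.07, limma adjusted p = 0.9997), but the vehicle sample of 30o overlapped the progesterone range. The cytosolic chaperonin subunit Cct3 (-0.31), the mitochondrial import protein Timm44 (-0.30) and the Rap activator Rapgef6 (-0.28) were lower without overlap. So were Tsr2 (-0.32), Cdc42ep2 (-0.28), Syngr2 (-0.31) and the deubiquitinase Usp8, whose pair differences of -0.25, -0.22, -0.22 and -0.22 were nearly equal. The MAP kinase phosphatase Dusp2 (-0.32), Kdelc1 (-0.24), Zfp704 (-0.27), Mras (-0.25), Rnaseh1 (-0.24) and App (-0.24) had overlapping groups. By size alone, the cytokine Il11 (-0.35) and the sugar phosphate enzyme Pgm2 (-0.32) joined Smad3, Dusp2 and Tsr2 as the 5 largest differences below 0 with one sign, and none of the 5 passed the test.

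The probes that differed most within pairs had no common direction. The 10 with the largest SD of the pair difference hold the contractile and filament genes Myh11, Acta2 (2 probes), Des, Mylk and Actg2, the receptor gene Ednrb, the matrix genes Bgn and Timp3, and Cfd, a fat cell protease. Myh11 differed by -0.19, -1.63, -0.49 and 2.37, Des by -0.30, -1.76, -0.59 and 2.01 and Actg2 by 0.11, -1.11, -0.38 and 1.81. The order of the pairs was that of the muscle score. That score is itself made of smooth muscle markers, so this likeness is no independent evidence. Mean differences of these 10 probes lay between -0.16 and 0.21, far inside their spread. Differences beyond 1 in either direction were found for 46 probes in 19n and 94 in 15o, against 7 in 6d and 2 in 30o.

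The endothelin receptors moved with the muscle score. Ednra signals were 10.79, 10.02, 9.90 and 8.51 in the vehicle samples and 10.35, 8.75, 9.31 and 9.57 in the progesterone samples, with pair differences of -0.43, -1.27, -0.59 and 1.06. Ednrb differed by -0.08, -1.24, -0.07 and 1.90, beside the score's -0.06, -0.96, -0.33 and 1.31. The mean over 4 pairs was -0.31 for Ednra and 0.13 for Ednrb, and neither passed the test (limma adjusted p 0.9997). With the muscle score beside the pair in the fit, Ednra gave -0.30 (limma adjusted p = 0.590) and Ednrb 0.14 (adjusted p = 0.9998). The mean of Ednra was 0.01 without pair 19n, -0.76 without pair 15o (adjusted p = 0.414) and -0.51 without both, where limma called it (adjusted p = 0.0615) with 1 residual degree of freedom in a setting added after the data were seen. That of Ednrb was 0.58 without 19n, -0.47 without 15o and -0.08 without both. Edn1 was the only one of the 8 endothelin system genes with one sign in all pairs. The other ligand genes gave -0.10 for Edn2 and -0.20 for Edn3, which was detected on 2 of 8 arrays. The endothelin-converting enzyme Ece1 gave -0.08, Ece2 -0.08 and the endothelin-degrading peptidase Mme 0.01.

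Putting the muscle score into the fit beside the pair, an alternative added after the data were seen, changed which probes passed. With it limma called 14 probes higher (0.0831%) and 4 lower (0.0237%), which include 9 of the 11 listed genes, all but Amigo2 and Glrx. Irak2 passed by its dimmer probe alone (limma adjusted p = 0.166), while the brighter one did not pass (adjusted p = 0.743). The score comes from the same arrays and was measured after the exposure, and 2 residual degrees of freedom remain, so the spread behind these calls was estimated from few values. Fgf7, a growth factor of stromal cells that acts on epithelium, had signals of 9.18, 8.71, 8.39 and 7.13 in the vehicle samples and 10.07, 8.29, 9.30 and 9.43 in the progesterone samples. It was higher in 3 pairs and lower in 19n, by 0.92 on average (SE 0.34) and by 0.93 (SE 0.10, limma adjusted p = 0.0102) with the score in the fit. Mapre2, a microtubule end-binding protein, and the transcription factor gene Tcf23 were likewise lowest in 19n and highest in 15o, with 0.67, -0.12, 0.42 and 0.94 and 0.41, -0.26, 0.06 and 1.39. Stx18, a syntaxin of the endoplasmic reticulum, differed by 0.49, 0.83, 0.57 and -0.07, and Hmox1 was called too.

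The 4 lower calls had means below 0 and, unlike Fgf7, were lower in 6d and 30o. Like Fgf7 they were lower in 19n and higher in 15o. Lmcd1, a LIM domain cofactor of GATA factors, has 3 tested probes, of which the brightest and the next were called. The next brightest had signals of 9.90, 9.81, 9.28 and 7.96 in the vehicle samples and 8.89, 8.40, 8.31 and 8.50 in the progesterone samples. It was lower by about 1 or more in 6d, 19n and 30o and higher in 15o. With the score its difference was -0.70 (SE 0.08, limma adjusted p = 0.0143), and without it -0.71 (SE 0.27, adjusted p 0.9997). The brightest probe gave -0.74 (SE 0.11, limma adjusted p = 0.0676) with the score and -0.74 without it, and the third, which was not called, gave -0.44 without it. Mrgprf, an orphan receptor gene, and LOC100045780, annotated as similar to a meltrin metalloprotease, differed by -0.58, -1.15, -0.55 and 0.50 and -1.04, -1.25, -0.54 and 0.41.

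Leaving out pair 15o gave a related set. Limma then called 4 probes higher (0.0237%), those of Arfl4, Slc25a33, Tigd2 and Stx18, and 8 lower (0.0475%), and 7 of the 12 were also called with the score. Both settings use the same arrays, and the score differed most in pair 15o, so this overlap is no independent evidence. Leaving out 6d, 19n or 30o instead gave 0, 2 and 0 calls. Of the 3 Lmcd1 probes, the brightest fell by 1.18 and the next by 1.13 (adjusted p 0.0137 and 0.0283). Mustn1, a small nuclear protein of muscle and skeleton, fell by 0.81, Popdc2, a membrane protein of muscle, by 0.68, Angptl4, a lipoprotein lipase inhibitor, by 0.61, and the nerve growth factor gene Ngfb by 0.63. The hemoglobin gene Hba-a1, a marker of blood, was among them, with pair differences of -0.55, -0.59, -0.50 and 0.94. In pair 15o itself Mustn1 was higher by 1.43 and Angptl4 by 0.94, and a fit over all 4 pairs gave means of -0.25 and -0.23. Whether the tissue makeup of pair 15o or the hormone sets these values was not tested.

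**Figure D3:**
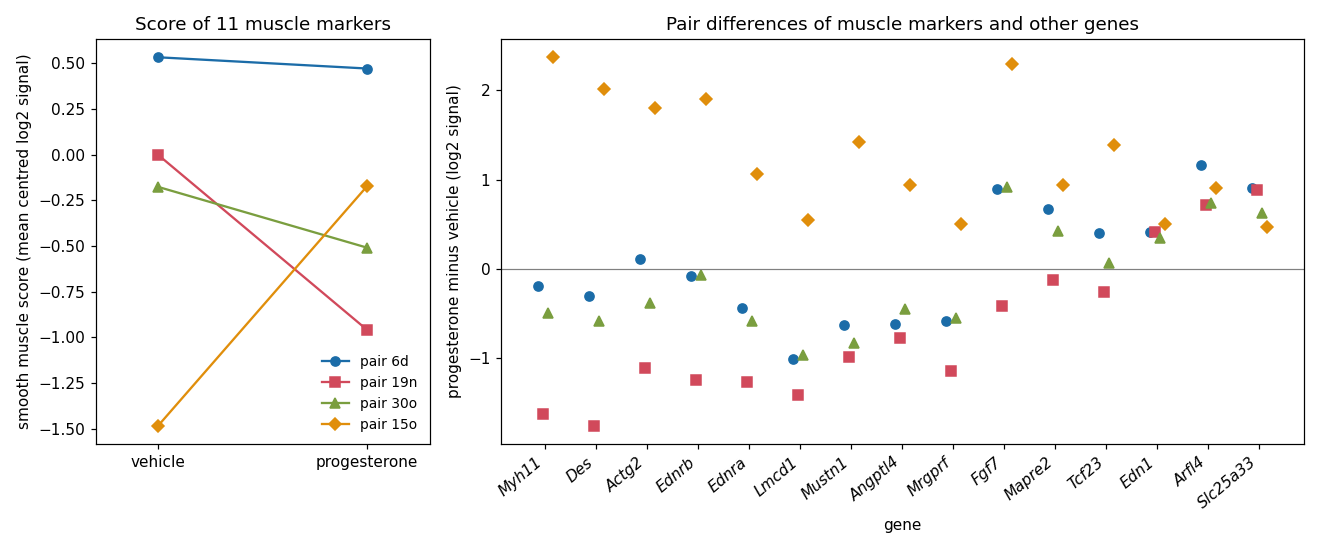
Left, the smooth muscle score (mean centred log2 signal of 11 markers) of the 8 samples of 2 h, one line per pair. Right, progesterone minus vehicle in log2 signal by pair for muscle markers, endothelin receptors, genes called with the score or without pair 15o, and 3 listed genes. Edn1, Arfl4 and Slc25a33 are above 0 in each pair while Myh11 runs from -1.63 in 19n to 2.37 in 15o.

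The receptors of progesterone themselves showed no change that passed the test on these arrays. Pgr, detected on 8 of 8 arrays, had signals of 7.74, 7.32, 7.45 and 7.25 in the vehicle samples and 7.34, 7.18, 7.53 and 7.30 in the progesterone samples. The groups overlapped, and the difference was -0.10 (95% confidence interval -0.31 to 0.11). Among 5 tested receptor genes, 0 had one sign in all pairs, and Pgrmc1 gave 0.04, Paqr7 0.001 and Paqr6 -0.13. Of 12 steroid receptor and chaperone genes, Hsp90ab1 (-0.10) and the coactivator Ncoa2 (-0.14, detected on 4 of 8 arrays) were lower in all 4 pairs. The coactivator Ncoa3, the only one higher in all 4, was detected on 0 of 8 arrays, so its 0.09 is near background.

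Genes widely known to respond to progestins or corticosteroids mostly stayed near 0. Of 22 tested, 2 were higher in all 4 pairs, the metallothionein Mt1 (0.15) and glutamine synthetase Glul (0.07), and 0 were lower, with a median of 0.02. Fkbp5, a chaperone partner of steroid receptors and a common marker of their activity, had pair differences of -0.01, 0.23, 0.59 and 0.12. It was level in 6d and highest in 30o, with a mean of 0.23 that did not pass the test (95% confidence interval without adjustment 0.0032 to 0.47, limma adjusted p = 0.9997). Tsc22d3 (0.03), Per1 (0.12) and Sgk1 (0.04) gave means near 0 or slightly above. Klf9 and Errfi1 followed the muscle score, with 0.08, -0.90, 0.03 and 0.76 and 0.05, -0.86, -0.03 and 1.095. Of 17 targets known from the uterus, 1 was higher in all 4 pairs, the nuclear receptor gene Nr2f2 (0.11), while the hedgehog ligand Ihh gave 0.13, Areg -0.14 and Sox17 0.18. Of 11 targets known from the ovary, 0 had one sign, with a median of -0.06 and Adamts1, a protease needed for ovulation, at 0.09.

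**Figure D4:**
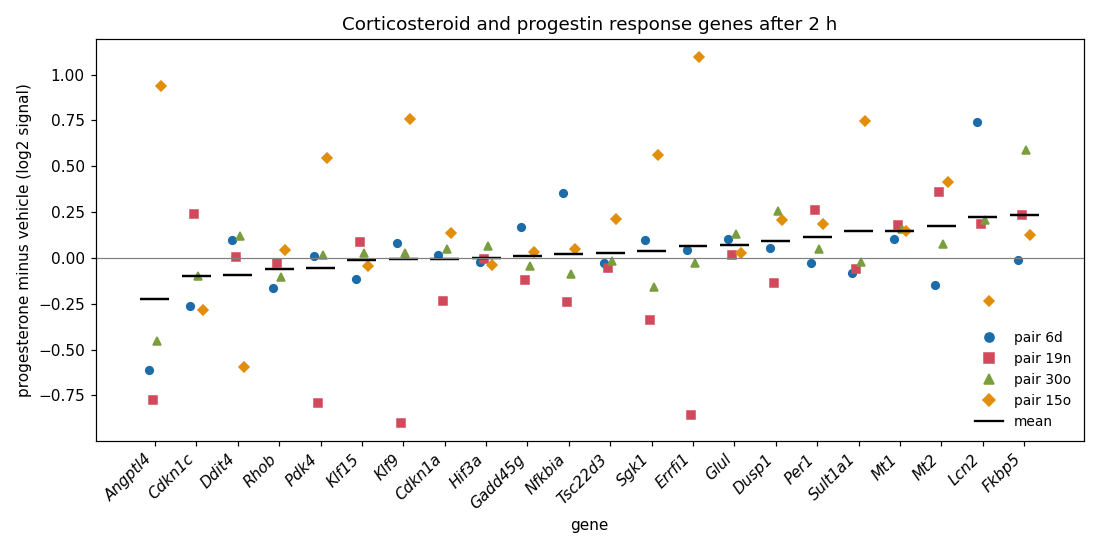
Progesterone minus vehicle in log2 signal for the 22 tested corticosteroid and progestin response genes, with points for the 4 pairs of 2 h and bars for the means. All means lie between -0.23 and 0.23, and Klf9, Errfi1 and Angptl4 are spread between 19n and 15o.

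Inflammatory genes beside Cxcl1 went in both directions, 10 higher and 16 lower on average, and the group as a whole was not tested. Of 26 tested, 2 were higher in all 4 pairs, Nfkbiz and Cxcl2, and 1 was lower, the mRNA-degrading regulator Zc3h12a (-0.14), with a median of -0.04. Cxcl2, a chemokine gene next to Cxcl1 that shares the NF-kB type match printed above, had signals of 7.94, 8.03, 7.65 and 7.57 in the vehicle samples and 8.20, 8.22, 8.16 and 7.77 in the progesterone samples, a difference of 0.29. It was higher in each pair, but its groups overlapped. The cytokine genes Il1b (-0.18), Tnf (-0.01), Ccl2 (-0.07) and Il6 (0.19) had both signs among the pairs, and so did Nfkbia (0.02), the NF-kB inhibitor gene. In interleukin 1 and Toll-like receptor signalling, 3 of 14 genes were higher in all 4 pairs and 0 lower, beside 4.81% of all genes tested, and 1 of the 3 is Irak2, chosen by the study for being higher. These are Irak2, the inhibitory relative Irak3 (0.49, 0.10, 0.19 and 0.31, mean 0.27) and the adaptor Myd88 (0.06, 0.40, 0.17 and 0.27, mean 0.22), while Irak1 and Irak4 gave -0.02 and 0.01. The adjusted p of Irak3 and Myd88 was 0.9997 in limma.

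Immediate early genes, which respond within minutes to many stimuli, went in both directions, 7 higher and 15 lower on average. Their means lay between -0.27 and 0.09, with a median of -0.03. Of 22 tested, 1 was higher in all 4 pairs, Nr4a3 (0.07, detected on 2 of 8 arrays), and 2 were lower, Ier3 and Myc (-0.10). Over all genes tested these shares are 4.81% and 5.45%, and the counts are too small to read as a result about the group. Ier3, an early gene linked to cell survival, had signals of 13.97, 14.10, 13.90 and 14.22 in the vehicle samples and 13.79, 13.76, 13.83 and 13.87 in the progesterone samples. Its groups did not overlap, and the difference was -0.23 (SE 0.08). Fos (-0.02), Jun (0.03) and Egr1 (-0.02) had both signs. Of 13 heat shock genes, Hmox1 and Hspb8 were higher in all 4 pairs and Cryab was lower (-0.22), while Hspa1a gave -0.04 and Hspa8 -0.09.

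Relatives of the listed genes went in both directions. Of 23 tested (all genes: 4.81% higher and 5.45% lower), 5 were higher in all 4 pairs, Cxcl2, Irak3, the serpin gene Serpina3g (0.28), the mitochondrial carrier Slc25a36 (0.20) and thioredoxin reductase Txnrd1 (0.10), and 1 was lower, the prolyl hydroxylase subunit P4ha1 (-0.24). P4ha1 and P4ha2 thus had opposite signs, as did Amigo3 (-0.29, lower in 3 pairs) and Amigo2. The glutaredoxins Glrx2, Glrx3 and Glrx5 gave 0.09, -0.05 and -0.06, and Slc25a32 gave 0.07. Probes of the closely related Serpina3 genes can cross-hybridize on arrays, which was not tested.

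Among 22 regulators of contraction, 4 were higher in all 4 pairs and 1 lower, beside 4.81% and 5.45% of all genes tested. Rgs2, which damps signals of contractile receptors, was higher by 0.20, and Ptgis, the prostacyclin synthase, by 0.09. The prostacyclin and prostaglandin F receptor genes Ptgir and Ptgfr were detected on 0 of 8 arrays, so their 0.10 and 0.10 are near background. Ptges, a prostaglandin E synthase, was lower by -0.12, -0.43, -0.32 and -0.0002 in the pairs, a mean of -0.22. The gap junction gene Gja1 gave -0.21 and the nitric oxide synthase Nos3 -0.17, with both signs among the pairs.

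Of the markers of the tube's other cells, none passed the test. The 4 tested fat markers were all higher on average, with a median of 0.14 and pair medians of 0.10, 0.03, -0.11 and 0.52, and so were the 4 mesothelium markers, with a median of 0.08. Of 12 blood and immune markers 10 were higher and 2 lower (median 0.08), and of 7 stroma markers 5 were higher and 2 lower (median 0.13). Without pair 15o the medians were -0.04 for blood and immune, -0.26 for stroma, -0.0059 for fat and 0.24 for mesothelium markers. The 11 secretory epithelium markers had a median of -0.02 and the 13 motile cilia markers -0.04, each with 0 genes of one sign, and the cilia score differed by 0.36, -0.21, -0.02 and -0.25 in the pairs. Stroma and endothelium scores followed the muscle score, with 0.09, -0.48, -0.22 and 1.004 for stroma and -0.16, -0.27, -0.15 and 0.54 for endothelium. The mesothelium score ran the other way, with 0.02, 0.34, 0.32 and -0.36. The summed signal of the 12 blood and immune markers, not in log2, ranged from 5738 to 17498 in the vehicle samples. In the progesterone samples it ranged from 8587 to 13778.

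**Figure D5:**
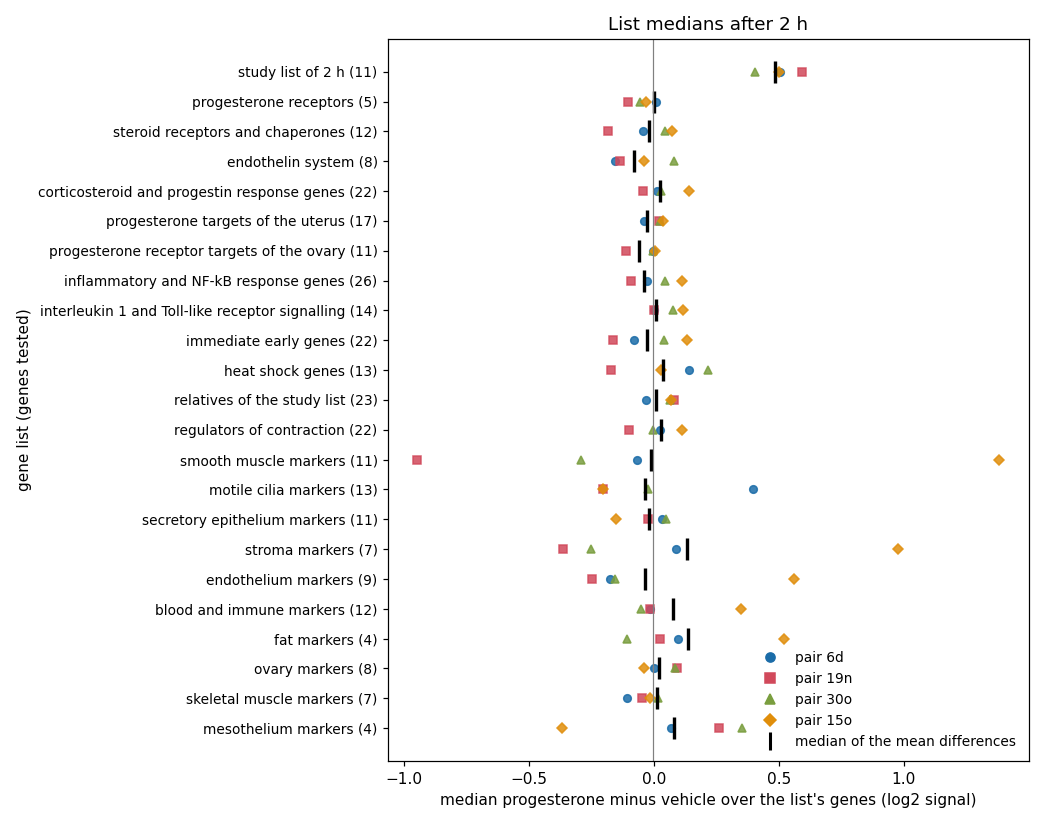
Median over the tested genes of each list of the difference progesterone minus vehicle in log2 signal, with points for the 4 pairs of 2 h and black ticks for the median of the mean differences. The list chosen by the study on these samples lies at 0.49, all other lists lie between -0.08 and 0.14, and the pairs 19n and 15o are farthest apart for smooth muscle.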

How the data were processed

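RNA of 16 samples of mouse fallopian tube was measured on 1 array each, and the 8 arrays of 2 h are described here. Each probe's signal intensity, as the authors deposited it, was summarized from the beads and not normalized. They also deposited a detection p-value, the share of negative control probes that are brighter. Quantile normalization over 16 arrays and a log2 transformation followed (R 4.3.3, limma 3.58.1). Tests were made on probes for which 13 arrays or more gave a detection p-value below 0.5. Progesterone and vehicle were compared by lmFit and eBayes, with a block for each pair, after tests on simulated data. The pairing comes from the paper and from codes shared by the labels. Deviations from the group means correlated at 0.65, 0.00049, 0.34 and 0.18 within codes 6d, 19n, 30o and 15o, and at -0.60 to 0.34 between codes. The highest value between codes joined the vehicle sample of 15o and the progesterone sample of 19n, and exceeded the values within both codes. This check therefore does not clearly bear out the pairs 19n and 15o. The paper's text gives 1 tube of each mouse to each arm, but also 6 tubes of 3 animals to a dish, so which animals a pair shares is unsettled.

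The named genes are the 11 genes of the study, the endothelin genes with Pgr, and members of 23 gene lists. Among probes with one sign in all 4 pairs, the 15 smallest p and the 5 largest differences in each direction are named too. So are the 10 probes with the largest SD of the pair difference. One gene that the rule names is not reported here. Genes called with the muscle score or without pair 15o were named after their values were seen. In the gene lists, a gene with several kept probes is represented by its brightest. Probes named by their rank are given as ranked, brightest or not. Those of Becn1, 4933434E20Rik, Timm44, Tsr2, Kdelc1, Syngr2, Acta2 and Mylk are not the brightest of their genes. The members and lists were chosen with earlier results of these data known. Paired SAM used all 16 sign changes of the 4 pairs. Alternatives changed the normalization, filter, block, prior and pairs. Symbols are those of the authors' annotation, and 20735 of 25697 probes have a symbol of RefSeq. All arrays were matched to samples, and the number of pairs limits the precision. Plots were made in matplotlib 3.10.9 under Python 3.11.15.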

Additional observations from a re-analysis of the deposited data

Results flagged for a closer look

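In 58 groups of 4 arrays examined (signals, scores and named genes of 2 h), 4 held a sample far from the other 3, where about 1 in 20, or 2.9, arises by chance. They are the mesothelium score of the vehicle sample of 15o (0.59, the next at -0.09), Cxcl1 in the same sample (10.32, the next at 10.89), Edn2 in the same sample (9.03, the next at 8.07) and Arfl4 in the progesterone sample of 6d (8.87, the next at 8.24). The effect on Arfl4 differed between 2 h and 20 min by 0.98 (limma adjusted p = 0.147). Serpina3n was higher with progesterone in 4 of 4 pairs at 2 h and lower in 4 of 4 at 20 min, a difference of 0.61 that did not pass the test (adjusted p = 0.383).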

How the results depend on the processing

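The count of 1 called probe after 2 h fell to 0 under quantile normalization over the 8 arrays alone, median scaling, no normalization, no filter, the filter read the other way and an adjusted p of at most 0.05. It was 3 with a trend in eBayes, 3 with the stricter filter on detection, 6 with all 16 arrays in one fit and 17 with paired SAM, and 0 to 12 when one pair was left out. Added after the data were seen, the muscle score as a covariate gave 18, and leaving out pairs 19n and 15o together gave 48, with 1 residual degree of freedom. Without the replicate block limma called 1 probe after 2 h, Slc25a33 in place of Arfl4. With neqc, with the brightest probe of each gene or with annotated probes only it stayed at 1, again Arfl4. The count of 1 for the difference of the effects at 2 h and 20 min was 0 with median scaling, without a filter and without the pair as a block, and 0 to 31 when one pair of 2 h was left out, the 31 without 15o.

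Among the 17 genes run singly (the study's 11, Edn2, Edn3, Ednra, Ednrb, Ece1 and Pgr; not Ece2 and Mme), the sign turned only for Ednra, from -0.76 without 15o to 0.013 without 19n, for Ednrb, from -0.47 without 15o to 0.58 without 19n, and for Ednrb (-0.078) and Edn2 (0.015) without both of these pairs. The 11 listed genes kept a positive difference under the 10 alternatives that could change it, while a trend in eBayes, all 16 arrays in one fit and dropping the block leave the estimate as it is. Of 230 alternative values of list medians, 11 moved by more than the SD of the pair medians. No scaling moved the median of all probes by more than 0.06.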
